A study of Mus musculus with 16 samples.

Results

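Brown adipose tissue was compared between mice whose glucocorticoid receptor had been knocked out specifically in adipose tissue and control mice, called wild-type in the design text. These were 8 of the 16 arrays of the study, 4 labelled control and 4 labelled knockout, chosen by their titles; the other 8 held white fat of the same 2 genotypes. The labels give total RNA from male mice, prepared with a Qiagen RNeasy kit, labelled with Cy3 and hybridised to 1-colour Agilent mouse arrays. The promoter that drove the recombinase, the deleted exon and the age of the mice were not given in the sources used here, so which cells lost the receptor is known only as far as the word adipose goes. Of 41174 probes, 28416 were well above background on all 4 arrays of the brown control or of the brown knockout group, and the named ones among them stood for 15142 genes. Levels below are the log2 of the processed intensity, less the array's 75th percentile, and differences are knockout minus control on that log2 scale, with the standard error (SE) of the limma fit.

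The glucocorticoid receptor, encoded by Nr3c1, is a transcription factor that sits in the cytoplasm with heat shock proteins and immunophilins until cortisol or corticosterone binds it. It then enters the nucleus, raises genes that carry its response elements and dampens many inflammatory genes. In adipocytes, glucocorticoids promote fat storage, regulate lipolysis and restrain heat production, and in immature lymphocytes they cause cell death. Brown adipocytes burn fatty acids in mitochondria that are uncoupled by UCP1. In bulk tissue, fewer cells of a type and less RNA per cell cannot be told apart.

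The labels were first set against the arrays. Although each group was said to hold 4 biological replicates, control arrays 2 and 3 differed by less than the error the scanner software assigns to its spots, as did knockout arrays 2, 3 and 4. The median deviation between these arrays was 0.406 to 0.659 of that error, and at most 2 of 9836 bright probes differed by more than 2-fold. All other pairs of a brown group lay at 1.71 to 2.47 times the error, with 265 to 996 such probes. Arrays within the error were averaged and counted once, which leaves 3 control samples (array 1, arrays 2+3 and array 4) and 2 knockout samples (array 1 and arrays 2+3+4). Values are given in that order throughout, and nothing in the labels ties a sample to 1 animal. With so few samples, p-values and SEs rest on a spread between samples that is pooled over both tissues. That spread includes the white knockout samples, which lay 4.23 to 4.28 times the error apart. SEs and p-values therefore do not describe the scatter of the brown samples alone. For Cd163 the SE was 0.38, while the standard deviations of the brown samples were 0.045 in control and 0.0042 in knockout. On the brown arrays 69.4% to 77.0% of spots were well above background and 0 were saturated.

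Sex markers went against the label on all brown arrays. All 4 probes of Xist, the RNA that silences an X chromosome in female cells, were well above background on all 16 arrays, and the brightest lay between 3.13 and 3.72 on the 8 brown arrays. None of 9 probes of 7 Y-linked genes (Ddx3y, Kdm5d, Eif2s3y, Uty, Sry, Zfy1 and Usp9y) was above background on any brown array. All 8 arrays of both groups showed this pattern.

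One control sample, the one on arrays 2+3, lacked the defining markers of brown adipocytes. Ucp1 was at -0.83 there, against 5.63 to 8.07 on the other 6 brown arrays and -2.52 to -0.91 on the 8 white fat arrays. Cidea, a lipid droplet protein abundant in brown fat, was at 2.75, against 6.91 to 8.65 on the other brown arrays and 3.51 to 4.96 on white arrays. Elovl3, a fatty acid elongase that cold induces in brown fat, was at -4.74 against -1.05 to 2.47, and Slc27a2, a fatty acid importer, at -5.12 against -0.97 to 2.45. The proton channel gene Otop1 was at -3.62 against -1.03 to 1.52. In total this sample lay below all other brown arrays for 19 of 36 thermogenic and brown adipocyte genes, by more than 2-fold for 12, and within the range of the white arrays for 9.

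Some other genes of this sample did not resemble white fat. Cox7a1 (7.94) and Cox8b (7.14), respiratory subunits of muscle and brown fat, lay within the range of the other brown arrays and far above white fat, where the highest array had 2.40 and 4.56. Acta1, the actin of skeletal muscle, at 8.93 and Ckm, muscle creatine kinase, at 7.77 lay above all other brown arrays, whose highest had 8.68 and 7.37. Adipoq at 7.20 and Fabp4 at 8.94, both adipocyte genes, were like those of the other brown arrays. They were also within the range of the white arrays (6.58 to 8.32 and 8.50 to 9.20). It is called control 2+3 here, and results that rest on it are given with and without it.

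**Figure D1:**
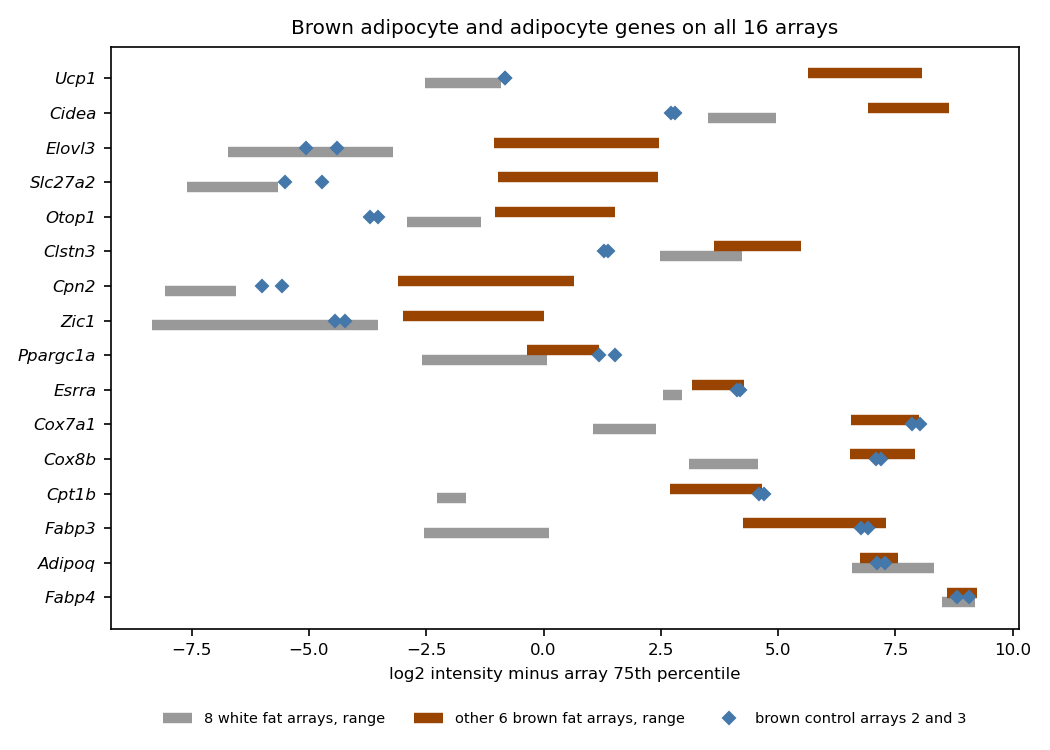
Level of 14 genes of brown adipocytes or muscle-type mitochondria and of the adipocyte genes Adipoq and Fabp4, as log2 intensity minus each array's 75th percentile: bars are ranges over the 8 white and the other 6 brown fat arrays, and diamonds are brown control arrays 2 and 3. The diamonds of Ucp1 average -0.83 while the brown bar starts at 5.63, and Cox7a1, Cox8b and Adipoq are inside the brown bar or at its edge.

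Across all genes, limma called 0 of 15142 (0.0%) at an adjusted p of 0.05, and the lowest adjusted p was 0.373, for Gsta3. At an unadjusted p below 0.05 it found 454 genes higher (3.0%) and 642 lower (4.24%) in knockout. With 16 arrays and the slide as a block, or with the brown samples alone, it called 1 gene, again Gsta3 (adjusted p = 0.0213 and 0.0370). With the 16 arrays counted as separate samples it called 1982 genes higher (13.1%) and 2813 lower (18.6%), a fit that takes repeat arrays for animals. The 2 knockout samples lay above all 3 control samples for 2016 genes (13.3%) and below them for 3241 (21.4%). Without control 2+3 these counts were 2431 (16.1%) and 4157 (27.5%), limma again called 0 genes and its lowest adjusted p was 0.825. Counts and medians of a gene list are read below against these shares, and no list was tested.

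The median difference of all genes was -0.12, with 6066 genes higher and 9076 lower. It depended on the scaling, being 0.31 on the authors' unscaled values, with which 11390 of 15142 genes were higher and the groups were apart for 5659 genes higher and 365 lower. With quantile normalization it was -0.067 and with the normexp background -0.22. List medians are therefore also given relative to the median of all genes. Without knockout 1 the counts of genes apart were 4197 higher and 6877 lower, and without knockout 2+3+4 the count higher was 3031. Knockout 2+3+4 stood furthest from the rest: 767 genes lay more than 2-fold above and 478 more than 2-fold below all 4 other brown samples, against 73 and 63 for knockout 1. Where a knockout sample is left out, a list's median is the per-sample median of the other.

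Nr3c1 itself was lower in both knockout samples. Its brightest probe was at 2.46, 2.62 and 2.29 in the control samples and at 1.50 and 1.69 in the knockout samples, so the groups did not overlap. The difference was -0.85 ± 0.21, or -44.7% of the signal (adjusted p = 0.608 by limma). On slide 4, the only slide with both brown groups (control arrays 3 and 4, knockout arrays 1 and 2), it was -0.90, and without control 2+3 it was -0.77. It was -0.42 on the authors' unscaled scale, on which all genes had a median of 0.31. The other 3 probes gave -0.35, -0.64 and -0.81. No probe is known to lie in the deleted part, and cells other than adipocytes in the tissue also express the gene.

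Among the genes of receptor and steroid handling some were lower and some higher, and the largest difference was a rise, that of Fkbp5. Hsd11b1, which turns inactive 11-keto steroid into active glucocorticoid inside the cell, was at 3.91, 3.18 and 4.45 in control and 1.87 and 3.02 in knockout (-1.40 ± 0.46). Fkbp4, the immunophilin that carries the receptor to the nucleus, was at 2.11, 2.46 and 2.45 against 2.03 and 1.45 (-0.60 ± 0.25), and Nr3c2, the mineralocorticoid receptor that also binds corticosterone, at -3.50, -3.71 and -3.65 against -4.09 and -3.90 (-0.38 ± 0.21, but 0.054 with the authors' unscaled values). In all 3 genes both knockout samples lay below every control sample, Fkbp4 by less than 0.1.

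Ncoa2 and Fkbp5 lay the other way. Ncoa2, a coactivator of steroid receptors, was at -2.11, -2.17 and -2.09 in control and -1.76 and -1.65 in knockout (0.42 ± 0.17). Fkbp5, the immunophilin that holds the receptor in a low-affinity state and is itself induced by glucocorticoids, was at -1.09, -1.89 and -1.14 against -0.45 and 1.29 (1.80 ± 0.95). The 3 probes of Fkbp5 disagree, with differences from 0.11 to 1.80. Of the 24 measured genes of receptor and steroid handling, 17 were lower and 7 higher, with 5 apart below and 4 apart above, shares near those of all genes (median -0.17; 0.26 with the authors' unscaled values). Hsd11b2, which inactivates corticosterone, and Serpina6, its plasma carrier, were not above background.

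Known targets that glucocorticoids induce were mixed. Sult1a1, a cytosolic sulfotransferase, was the member with the widest gap. Its promoter is shown because it was the glucocorticoid-induced gene furthest apart in these samples. The stretch is the 250 bases before the start of the gene in RefSeq (chr7:126676419-126676668, minus strand, GRCm38.p6), 5′ to 3′, with matches to TGTTCT, the core hexamer of glucocorticoid response elements, on either strand in capitals.

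Sult1a1: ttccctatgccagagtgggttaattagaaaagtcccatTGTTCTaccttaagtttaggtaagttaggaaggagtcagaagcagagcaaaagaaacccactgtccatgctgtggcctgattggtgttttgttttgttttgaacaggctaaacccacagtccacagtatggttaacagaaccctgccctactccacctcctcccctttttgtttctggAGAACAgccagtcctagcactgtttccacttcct

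The hexamer was found 2 times in it. It was present in the same window of 4 of the 25 genes of the list that have a promoter in the table, against 18.2% of all 27025 genes there. These are matches of letters and not binding sites.

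Sult1a1 was at 3.50, 3.38 and 3.91 in control and 2.29 and 2.19 in knockout (-1.35 ± 0.27; -1.39 on slide 4). Dusp1, a phosphatase that switches off MAP kinases, was at 1.76, 2.18 and 2.24 against 1.58 and 1.49 (-0.53 ± 0.21). Gadd45g, a stress-response gene, was at 5.22, 5.35 and 5.07 against 4.36 and 4.75 (-0.66 ± 0.31). All 3 genes were lower in both knockout samples than in any control sample, by a margin wider than the control range for Sult1a1 and Gadd45g only. Lpin1, a phosphatidate phosphatase of triglyceride synthesis, was at 3.75, 3.83 and 4.05 against 3.46 and 3.19, and Angptl4, a secreted inhibitor of lipoprotein lipase, at 6.74, 6.32 and 6.73 against 6.22 and 5.96, also without overlap.

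Opposite to these, Ddit4, an inhibitor of mTOR complex 1, was at 3.42, 3.01 and 3.36 in control and 3.67 and 5.18 in knockout (1.16 ± 0.66). Arrdc2, an arrestin family gene, was at -1.48, -1.37 and -0.91 against 0.13 and -0.49 (1.08 ± 0.39). Per1, a clock gene with a well known response element, was at -0.57, -0.82 and 1.08 against 0.75 and 1.02, so its groups overlapped. Of the 30 measured members, 19 were lower, against 59.9% of all genes. Apart below were 10 (33.3%, against 21.4% of all genes), and apart above were 3 (10%, against 13.3%). The median was -0.46, or -0.34 relative to all genes, against -0.16 with quantile normalization and -0.097 with the normexp background. The plain median on the authors' unscaled values was -0.029. By sample it was -0.12, -0.12 and 0.27 in control and -0.08 and -0.55 in knockout, so knockout 1 lay among the controls. Without control 4 the median was -0.16, and without control 2+3 it was -0.39.

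The gene with the smallest p in brown fat was Gsta3, a glutathione transferase that conjugates electrophiles such as lipid peroxidation products. Its promoter is shown for that reason, as the 250 bases before the start in RefSeq (chr1:21240335-21240584, plus strand, GRCm38.p6), with the match to TGACNNNGC, the core of antioxidant response elements, in capitals.

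Gsta3: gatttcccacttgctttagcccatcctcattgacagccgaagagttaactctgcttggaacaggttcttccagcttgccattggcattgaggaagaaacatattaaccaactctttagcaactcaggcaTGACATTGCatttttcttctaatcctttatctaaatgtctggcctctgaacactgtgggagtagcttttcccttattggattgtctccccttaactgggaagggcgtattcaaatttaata

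The core was searched on both strands and was present in 4 of the 19 glutathione transferase genes with a promoter in the table, against 11.5% of all genes there. Gsta3 was at 3.32, 3.60 and 3.49 in control and -0.61 and -0.58 in knockout, a difference of -4.07 ± 0.42 or 16.8-fold (adjusted p = 0.373 by limma). The spread within either group was small beside the gap between them, and its other probe gave -4.08. On slide 4 the difference was -4.17.

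Some other genes of detoxification were lower with it. Gsta1 was at -1.46, -1.30 and -1.36 in control and -3.69 and -3.80 in knockout (-2.37 ± 0.37, or 5.17-fold), and Gstm2 at 4.39, 4.50 and 4.54 against 3.74 and 3.46 (-0.88 ± 0.28). Probes of glutathione transferases of 1 class can share sequence, so Gsta3 and Gsta1 may not be independent, which was not tested. Cyp2f2, a cytochrome P450 known from lung and liver, was at 2.02, 0.83 and 1.37 against -2.46 and -0.60 (-2.94 ± 0.86), and Cyp20a1, a P450 with no assigned substrate, at -1.19, -1.27 and -1.33 against -2.81 and -3.19 (-1.74 ± 0.58). Of 21 measured glutathione transferases 17 were lower and 9 apart below (median -0.50; -0.38 relative to all genes). For 22 cytochrome P450 genes the counts were 17 and 7 (median -0.29, but 0.15 with the authors' unscaled values). For 22 NRF2-type antioxidant genes they were 20 and 6 (median -0.30, but 0.14 with the authors' unscaled values). Relative to all genes the NRF2-type median was -0.026 with quantile normalization and 0.0054 with normexp. The shares apart below were 42.9%, 31.8% and 27.3% for these lists in order, against 21.4% of all genes.

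Slc6a13, a transporter of GABA and taurine, was at 2.05, 1.94 and 1.52 in control and -0.30 and 0.33 in knockout (-1.83 ± 0.38). Prrg3, a membrane protein with a Gla domain, was at -1.76, -1.85 and -1.80 against -3.29 and -3.54 (-1.61 ± 0.54), and the urocanate hydratase gene Uroc1, of histidine breakdown, at -4.31, -4.06 and -3.91 against -5.61 and -5.64 (-1.53 ± 0.31). Mmp13, a collagenase, was at -5.02, -5.24 and -2.15 in control and above background on no knockout array, where it was at least 4.17-fold lower, or at least 2.10-fold without control 4. Spef2, a sperm flagellum gene, was at least 1.51-fold higher and the pseudogene Speer6-ps1 at least 2.08-fold higher, being above background on no control array, but with the normexp background both turned lower (-0.45 and -0.31). The pseudogene Spn-ps and the predicted gene Gm14496, among the 5 smallest p with Gsta3, were at -1.25 ± 0.18 and -1.45 ± 0.20.

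Tested probe by probe, 2 of 28416 probes passed (limma, adjusted p = 0.0436 and 0.0405). One belongs to Arid5b, a regulator of lipid metabolism and adipocyte formation, and was at -2.61, -2.45 and -2.38 in control and -6.64 and -6.30 in knockout. It was above background on 1 of 4 knockout arrays and had a value on 3 of 4 control arrays, so the fitted difference of -3.99 ± 0.31 stands against a level at or near background. The brightest Arid5b probe was at 2.80, 2.94 and 2.76 against 2.20 and 2.11 (-0.68 ± 0.18). The probes of this gene differ about the size of the difference, and which transcripts each one reads is not given. The other probe that passed has no gene name here. It was above background on no control array and was at least 2.51-fold higher in knockout.

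**Figure D2:**
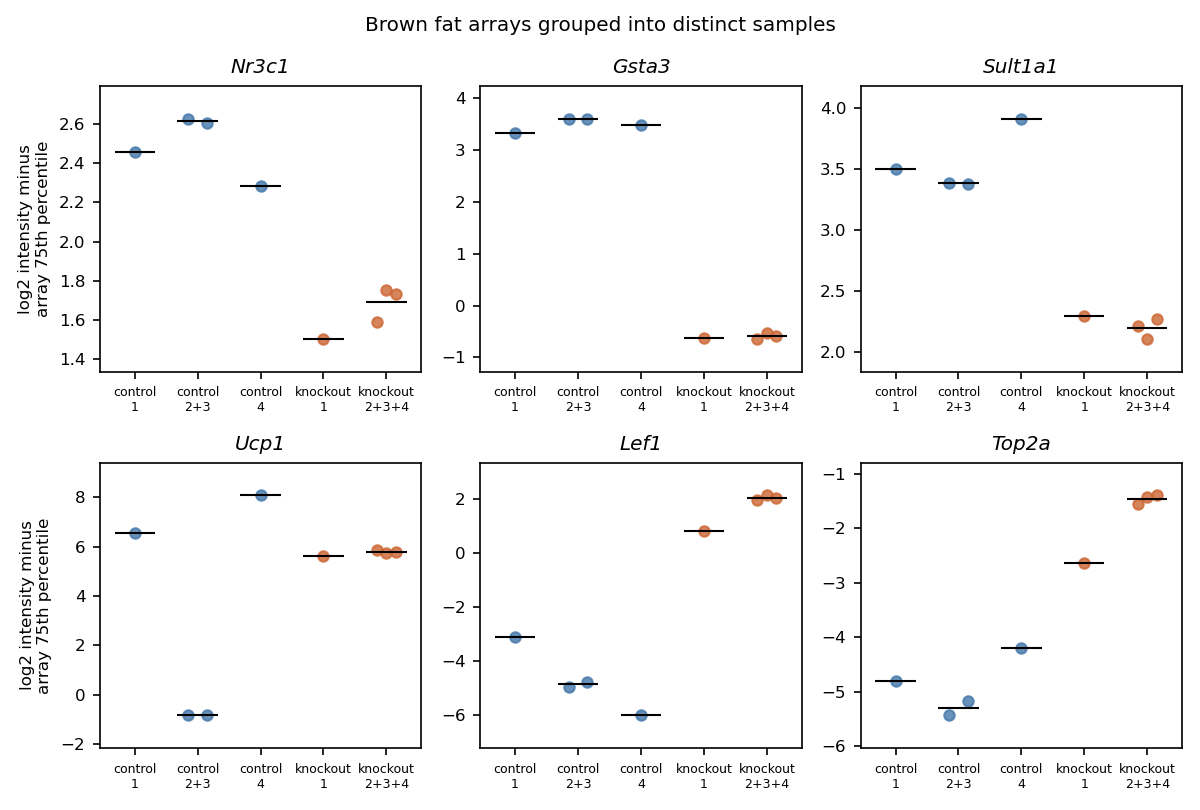
Log2 intensity minus the 75th percentile for 6 genes on the 8 brown fat arrays; points are arrays, grouped into the 3 control and 2 knockout samples, and lines are sample values. Gsta3 and Sult1a1 separate the groups, Ucp1 is low on control arrays 2 and 3 only, and Lef1 and Top2a are higher on every knockout array than on every control array.

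Thermogenic and brown adipocyte genes depended on control 2+3. Ucp1 was at 6.54, -0.83 and 8.07 in control and 5.63 and 5.80 in knockout. The difference was 1.12 ± 2.34 with all samples, -1.59 ± 0.66 without control 2+3 and 2.12 on slide 4, where control 2+3 is 1 of the 2 control samples. Cidea went from 0.81 ± 1.53 to -0.96 ± 0.41 without that sample, and Elovl3 from -0.61 ± 1.92 to -2.85 ± 0.47, although without control 1 or control 4 Elovl3 was at 0.25 and 0.75. Since control 2+3 stands apart by these same genes, their values without it are a description and not a separate comparison.

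As a list, 27 of 36 measured genes were lower, with a median of -0.41 and 2 genes apart below, fewer than the share of all genes. Without control 2+3, which was singled out by genes of this list, 34 of 36 were lower, the median was -0.82 and 15 were apart below, against 27.5% of all genes. Without control 4 the median turned to 0.15, and with the authors' unscaled values it was 0.017, or -0.29 relative to all genes. By sample the median was 0.02, -0.84 and 0.75 in control and -0.10 and -0.57 in knockout, so the 2 groups overlapped. The 2 genes apart with all samples were both mitochondrial regulators: Ppargc1a, the coactivator of mitochondrial biogenesis, at 1.16, 1.35 and 1.19 against 1.03 and -0.22, and Esrra, its nuclear receptor partner, at 3.84, 4.16 and 4.27 against 3.82 and 3.19. In both, knockout 1 lay just under the lowest control sample.

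Mitochondrial genes were lower as sets, mainly in knockout 2+3+4. All 35 complex I subunits were lower (median -0.53), 14 of them apart (40%). All 40 subunits of complexes II to V were lower too (median -0.53), 13 of them apart (32.5%). Of all genes 21.4% were apart below. Relative to all genes both medians were -0.41, but -0.17 with quantile normalization, and -0.15 and -0.14 with the normexp background. The plain median of complexes II to V was -0.23 with quantile normalization and -0.10 on the authors' unscaled values. The complex I median by sample was -0.25, 0.05 and 0.18 in control and -0.20 and -0.89 in knockout. Knockout 1 thus lay among the controls, and without it the median was -0.89. Ndufb11, an accessory subunit of complex I, was at 7.33, 7.44 and 7.43 against 7.10 and 6.63, Sdha, the flavoprotein of complex II, at 4.29, 4.37 and 4.86 against 4.00 and 3.16 (-0.93 ± 0.39), and Atp5a1, of ATP synthase, at 7.40, 7.64 and 7.61 against 7.20 and 6.60.

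Genes of the matrix enzymes and of the mitochondrial ribosome were lower too. All 21 citric acid cycle genes were lower (median -0.68), 15 of them apart (71.4%, against 21.4% of all genes). Their sample medians were -0.43 and -0.88 in knockout against -0.29, -0.24 and 0.54 in control. Cs, citrate synthase, was at 7.50, 7.54 and 7.80 against 7.18 and 6.77 (-0.64 ± 0.24), and the pyruvate carrier gene Mpc1 at 6.16, 6.10 and 7.09 against 5.83 and 5.85. All 46 mitochondrial ribosomal protein genes were lower, 22 of them apart (47.8%, against 21.4% of all genes). Their median was -0.43, but 0.0028 with the authors' unscaled values. Relative to all genes it was -0.31, but -0.18 with quantile normalization and -0.077 with normexp. Mrps7 was at 3.04, 3.23 and 3.43 against 2.79 and 2.46. For fatty acid oxidation 27 of 28 genes were lower, but none was apart below. The median was -0.47, but -0.039 with the authors' unscaled values, or -0.35 relative to all genes. The exception was Cpt1a, the liver-type carnitine transferase, at 0.25, 0.29 and 0.41 against 0.96 and 0.62. Without control 2+3, the lowest control for this list (-0.41, against -0.21 and 0.65), 9 were apart below, against 27.5% of all genes. Leaving that sample out widens the gap and is a description only. Skeletal muscle genes were lowest in knockout 2+3+4. All 28 were lower, with medians of 0.06, 0.34 and -0.30 in control and -0.33 and -1.48 in knockout. Their part in the mitochondrial differences was not tested.

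The median of fatty acid synthesis genes was lowest in knockout 1. All 26 fatty acid synthesis genes were lower, with a median of -0.88 and 11 apart (42.3%, against 21.4% of all genes). Without control 2+3 the median was -1.08 and 24 were apart, against 27.5% of all genes. That sample was the lowest control for this list, so leaving it out widens the gap and is a description only. By sample the median was 0.04, -0.54 and 0.53 in control and -1.14 and -0.39 in knockout, so knockout 2+3+4 lay above control 2+3. Mlxipl, the carbohydrate-sensing factor ChREBP, was at 4.95, 4.78 and 5.11 against 3.80 and 4.18 (-0.96 ± 0.29). Scd1, the stearoyl-CoA desaturase, was at 7.87, 7.57 and 8.38 against 7.05 and 7.02 (-0.90 ± 0.39), and Fasn, fatty acid synthase, at 9.38, 8.95 and 9.46 against 8.64 and 8.86 (-0.51 ± 0.24). These 3 genes did not overlap between groups. Acly, which makes cytosolic acetyl-CoA, was at 4.24, 3.26 and 5.02 against 0.61 and 3.98, so its low mean came from knockout 1.

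Cholesterol synthesis had 21 of 24 genes lower and 12 apart (50%, against 21.4% of all genes). Its sample medians were 0.06, -0.22 and 0.14 in control and -0.86 and -0.35 in knockout (median difference -0.74). The named genes were lower in knockout 2+3+4 than in knockout 1. Lss, lanosterol synthase, was at -0.13, 0.050 and 0.023 against -0.76 and -1.32 (-1.02 ± 0.23), and Fdft1, squalene synthase, at 1.88, 2.13 and 2.41 against 1.46 and 0.97 (-0.93 ± 0.27). For triglyceride synthesis and uptake 21 of 24 genes were lower and 8 apart below (33.3%, against 21.4% of all genes). The median was -0.42, but 0.011 with the authors' unscaled values. Relative to all genes it was -0.071 with quantile normalization and -0.046 with normexp. The acyltransferase Mogat2 was at 0.24, 0.36 and 0.60 against -0.92 and -0.29 (-1.002 ± 0.25). For lipolysis and lipid droplets 17 of 21 were lower and 3 apart below, a share under that of all genes (median -0.31; 0.12 with the authors' unscaled values). Without control 2+3, 20 of 21 were lower and 11 apart below, against 27.5% of all genes (median -0.60). Control 2+3 was the lowest control for this list (-0.50, against 0.014 and 0.57), so leaving it out widens the gap and is a description only. G0s2, the inhibitor of adipose triglyceride lipase, was at 4.06, 3.86 and 4.59 against 2.999 and 3.39 (-0.98 ± 0.38).

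Among secreted adipocyte products, Retn (resistin) was at 5.62, 5.59 and 5.84 in control and 4.10 and 4.79 in knockout (-1.24 ± 0.35). Lep (leptin) was at 1.39, 1.43 and 1.45 against 0.20 and 0.71 (-0.97 ± 0.39), and the retinol carrier Rbp4 at 6.39, 6.09 and 6.84 against 5.20 and 5.57 (-1.06 ± 0.41). Adipoq was at 7.53, 7.20 and 7.55 against 7.34 and 6.81, so its groups overlapped (-0.35 ± 0.43, but 0.077 with the authors' unscaled values). Of 23 adipocyte identity and adipokine genes 22 were lower and 10 apart (43.5%, against 21.4% of all genes). Their median was -0.35, but 0.077 with the authors' unscaled values. Relative to all genes the median was -0.23, but -0.00069 with quantile normalization and 0.028 with the normexp background. Mest, an imprinted gene linked to adipocyte enlargement, was at 2.33, 2.28 and 3.05 against -0.49 and 1.28 (-2.16 ± 0.56), and 12 of 13 imprinted growth genes were lower (median -0.39, but 0.039 with the authors' unscaled values).

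Glucose and amino acid genes lay lower too. The glycolytic Pkm, pyruvate kinase, was at 5.35, 5.63 and 5.32 against 4.69 and 4.30 (-0.94 ± 0.22), and Pgk1, phosphoglycerate kinase, at 6.17, 6.51 and 6.23 against 5.74 and 5.24 (-0.81 ± 0.23). Of 23 genes of insulin signalling and glucose uptake 19 were lower (median -0.53). Apart below were 10 (43.5%, against 21.4% of all genes). Branched-chain amino acid breakdown had 18 of 19 lower and 6 apart (31.6%), with a median of -0.57. Creatine cycling had 6 of 8 lower and 2 apart (25%), near the share of all genes. Its median was -0.59, with 0.033 and -1.04 in the knockout samples. For 22 adrenergic and cyclic AMP genes the median was -0.12, that of all genes. Without control 2+3, the lowest control for this list (-0.16, against -0.016 and 0.29), the median was -0.46. Then 16 of 22 were lower and 9 apart below, against 27.5% of all genes. Leaving that sample out widens the gap and is a description only. Adrb3, the adrenergic receptor of adipocytes, had no named probe.

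T and NK lymphocyte genes had the highest median difference of the lists with all samples. On slide 4 that of B lymphocyte and plasma cell genes was higher (4.36 against 3.84). Lef1, a transcription factor of immature and naive T cells, was at -3.10, -4.85 and -6.00 in control and 0.83 and 2.06 in knockout (6.09 ± 1.88). Il7r, the receptor for the survival cytokine IL-7, was at -2.53, -4.50 and -5.32 against 0.90 and 1.81 (5.47 ± 1.21), while its other probe differed by 2.51 only. In the brightest probes of both genes the lower knockout sample exceeded the highest control sample by over 3 on the log2 scale.

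Chains of the T cell receptor complex and its coreceptors differed in size. Cd3d was at -0.78, -1.15 and -2.75 against 2.12 and 3.68 (4.46 ± 1.47), Cd3g at -2.16, -2.32 and -4.12 against 0.59 and 2.15 (4.24 ± 1.28) and Cd8a, the coreceptor of cytotoxic T cells, at -2.30, -2.74 and -4.32 against 0.44 and 2.85 (4.76 ± 1.85). Cd3e, another chain, was at -3.25, -2.56 and -2.11 against -1.98 and -1.55 (0.88 ± 0.78), and the single probe of Cd4 was at -3.13, -2.61 and -3.40 against -3.10 and -3.10. Of 30 measured T and NK genes 27 were higher and 26 apart above (median 3.35; 2.41 with the normexp background), with sample medians of 0.70, 0.13 and -0.93 in control and 2.65 and 4.22 in knockout. On slide 4 the median was 3.84, and without control 2+3 it was 3.62. Tcf7 (4.79 ± 1.38), the adaptor Skap1 (4.40 ± 1.20) and Ms4a4b (3.99 ± 1.25) were among the genes with the widest gaps, as were Ipcef1 (4.56 ± 1.48) and the neuronal vesicle gene Nsg2 (6.22 ± 1.26), both above background on 2 of 4 control arrays. Dapl1, an epithelial and T cell gene, was at -5.36, -4.87 and -5.53 against 0.21 and 1.49 (6.10 ± 1.72), the widest gap of all.

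B lymphocyte genes were high in control 1 as well as in the knockout samples. Ms4a1, the CD20 antigen, was at 3.39, -2.31 and -3.56 in control and 2.05 and 4.59 in knockout. Cd79b, a chain of the B cell receptor, was at 4.26, -0.32 and -1.21 against 3.52 and 5.63. In both genes control 1 lay above knockout 1, so the groups overlapped. For the 22 measured B and plasma cell genes 19 were higher (median 3.15), but only 3 were apart above, near the share of all genes, and sample medians were 2.54, -0.85 and -1.71 in control and 2.26 and 4.02 in knockout. The genes apart were Jchain, the joining chain of secreted antibodies, at 0.75, 0.086 and -0.64 against 3.16 and 2.17 (2.60 ± 0.68), Derl3 (2.23 ± 0.52) and Mzb1 (3.26 ± 1.13).

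By list median, genes of organised lymphoid tissue were higher in both knockout samples, and most so in knockout 2+3+4. Ccl21a, a chemokine that draws T cells into lymph nodes, was at 0.43, 0.41 and 0.71 in control and 2.78 and 5.49 in knockout (3.61 ± 1.17), and its partner Ccl19 at 2.13, 1.01 and -0.47 against 3.18 and 6.13. Glycam1, a mucin of high endothelial venules, was at 1.42, -4.50 and -6.64 against -0.049 and 5.86, so control 1 exceeded knockout 1. Of 14 genes of lymph node stroma and high endothelial venules 13 were higher (median 1.24, but 0.82 with the normexp background). Apart above were 4 (28.6%, against 13.3% of all genes), and 1 was apart below. The sample medians of this list were 0.51, -0.18 and -0.12 in control and 1.07 and 1.71 in knockout. Bcl6, a repressor of germinal centre B cells that adipocytes also express, was at 4.50, 5.07 and 4.73 against 4.08 and 3.99. Of 7 germinal centre genes 6 were higher (median 2.83, but 0.71 with the normexp background). Their sample medians were 0.37, -0.23 and -0.034 in control and 1.34 and 4.05 in knockout.

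Markers of the thymus were mixed. Dntt, the nucleotide transferase of immature lymphocytes, was at -2.23, -2.53 and -2.43 in control and -1.74 and -0.67 in knockout (1.19 ± 0.54), but Rag1 and Rag2 were not above background. Thymic epithelium had a median of -0.081 over 7 genes (0.35 with the authors' unscaled values and 0.22 without control 2+3), Psmb11, its defining proteasome subunit, was not above background, and Prss16, its serine protease, was at -5.61, -5.37 and -5.60 against -3.83 and -4.22 (1.51 ± 0.55, but -0.23 with the normexp background). Of 8 immature thymocyte genes 5 were higher and 4 apart above, against 13.3% of all genes (median 0.65, but 0.085 with the normexp background).

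Myeloid genes were mixed. Adgre1, the macrophage antigen F4/80, was at 1.53, 1.71 and 1.31 in control and -0.016 and 0.96 in knockout (-1.04 ± 0.32), and the haemoglobin scavenger receptor Cd163 at 1.30, 1.21 and 1.25 against 0.74 and 0.75 (-0.51 ± 0.38). Of 26 macrophage genes 12 were higher and 14 lower (median -0.053; 0.38 with the authors' unscaled values), with -0.67 in knockout 1 and 0.36 in knockout 2+3+4. All 10 genes of MHC class II presentation were higher (median 1.11), but none was apart, with 0.90, -0.11 and -0.88 in control and 0.14 and 2.08 in knockout. Among them H2-Ob, which regulates peptide loading in B cells, was at -0.65, -5.42 and -5.86 against -1.34 and 0.86. It was above background on 2 of 4 control arrays, and control 1 exceeded knockout 1. Dendritic cell genes (9 of 12 higher, median 0.84, but -0.075 with the normexp background) and granulocyte and mast cell genes (8 of 12 lower, median -0.50) had 1 and 3 members apart in those directions. These shares were 8.3%, under the 13.3% of all genes apart above, and 25%, near the 21.4% apart below.

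**Figure D3:**
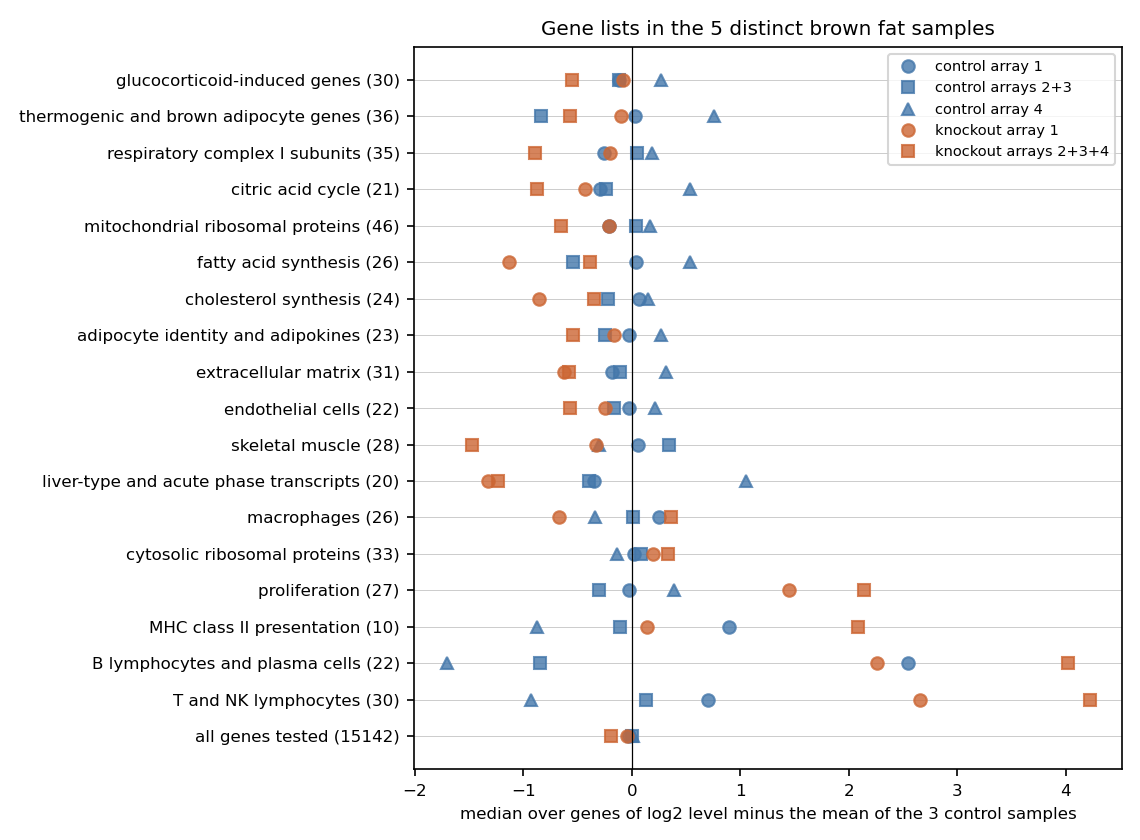
Median, over the measured genes of each list (number in brackets), of the log2 level minus the mean of the 3 control samples, for each of the 5 distinct brown fat samples. Proliferation and T and NK genes are higher in both knockout samples than in all controls, control array 1 joins the knockout samples for B cell genes, and knockout array 1 lies among the controls for complex I subunits.

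Proliferation genes were higher in both knockout samples. The promoters of Top2a, Mcm5 and Cdk1 are shown, since these 3 had the widest gaps between the groups among members with a single promoter in the RefSeq table. Each line is the 250 bases before the start, 5′ to 3′, with CCAAT, the box bound by NF-Y and common in mitotic promoters, in capitals where it occurs on either strand. Top2a lies at chr11:99024190-99024439 (minus strand), Mcm5 at chr8:75109259-75109508 (plus strand) and Cdk1 at chr10:69352913-69353162 (minus strand) in GRCm38.p6.

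Top2a: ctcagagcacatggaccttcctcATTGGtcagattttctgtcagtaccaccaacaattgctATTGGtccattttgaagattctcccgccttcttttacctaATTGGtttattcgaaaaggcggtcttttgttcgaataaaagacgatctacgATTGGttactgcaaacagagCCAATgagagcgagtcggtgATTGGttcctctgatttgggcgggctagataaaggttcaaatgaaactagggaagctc

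Mcm5: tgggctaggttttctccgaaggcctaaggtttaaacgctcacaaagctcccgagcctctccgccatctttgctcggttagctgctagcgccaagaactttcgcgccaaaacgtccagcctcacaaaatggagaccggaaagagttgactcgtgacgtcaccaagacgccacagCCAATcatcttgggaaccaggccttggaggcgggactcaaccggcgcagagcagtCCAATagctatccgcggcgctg

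Cdk1: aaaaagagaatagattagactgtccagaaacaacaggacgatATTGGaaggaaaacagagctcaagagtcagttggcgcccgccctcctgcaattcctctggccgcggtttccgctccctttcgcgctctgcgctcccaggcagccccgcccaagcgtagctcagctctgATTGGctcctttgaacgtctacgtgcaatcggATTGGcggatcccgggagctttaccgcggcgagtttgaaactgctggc

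The box occurs 6 times before Top2a, 2 times before Mcm5 and 3 times before Cdk1. It was present in 20 of the 23 proliferation genes with a promoter in the table, against 37.5% of all 27025 genes there. This describes the letters and says nothing of binding.

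Top2a, the topoisomerase of dividing cells, was at -4.80, -5.30 and -4.20 in control and -2.64 and -1.46 in knockout (2.72 ± 1.05). Mcm5, part of the replicative helicase, was at -0.62, -1.42 and -0.79 against 0.68 and 1.82 (2.20 ± 0.91), and Cdk1, the mitotic kinase, at -4.35, -4.83 and -3.01 against -1.75 and -1.48 (2.45 ± 0.92). All 3 separated the groups by more than 1 on the log2 scale. Aurkb, the kinase of chromosome segregation, was at -5.12, -5.08 and -4.44 against -2.83 and -1.85 (2.54 ± 0.97), and Myc, a growth regulator, at 0.26, 0.20 and -0.31 against 1.44 and 1.30 (1.32 ± 0.43). Of 27 genes 26 were higher and 25 apart above (median 1.79; 1.01 with the normexp background and 2.22 with the authors' unscaled values), with sample medians of -0.029, -0.31 and 0.39 in control and 1.45 and 2.14 in knockout. On slide 4 the median was 1.79 and without control 2+3 it was 1.77. T and NK genes were higher in the same 2 samples (2.65 and 4.22), and their part in this result was not tested.

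Cytosolic ribosomal protein genes were slightly higher, in 28 of 33 members with 20 apart above (median 0.27; 0.39 relative to all genes), at 0.19 and 0.34 in the knockout samples and -0.14 to 0.085 in control. Rpl3 was at 4.67, 4.29 and 4.67 against 5.04 and 5.31 (0.63 ± 0.26), and Rps6, the target of S6 kinase, at 5.05, 5.23 and 4.90 against 5.54 and 5.81 (0.62 ± 0.36).

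Matrix genes were the list with the largest share of members below all controls. Lum (lumican), a collagen-binding proteoglycan, was at 4.14, 4.32 and 4.54 in control and 3.35 and 3.39 in knockout (-0.97 ± 0.36), and Dcn (decorin), another, at 6.41, 6.76 and 6.46 against 5.96 and 5.69 (-0.72 ± 0.29). Col1a1, the main fibrillar collagen, was at 4.34, 4.43 and 5.34 against 3.78 and 3.90 (-0.87 ± 0.42), and Timp4, an inhibitor of matrix proteases in fat, at 2.63, 2.15 and 2.75 against 1.15 and 0.37 (-1.75 ± 0.60). Of 31 measured members 29 were lower and 25 apart below (median -0.67; -0.24 with the authors' unscaled values and -0.55 relative to all genes in both). The medians of the 2 knockout samples were close, -0.62 and -0.58, against -0.18, -0.11 and 0.31 in control, and on slide 4 the difference was -0.73.

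**Figure D4:**
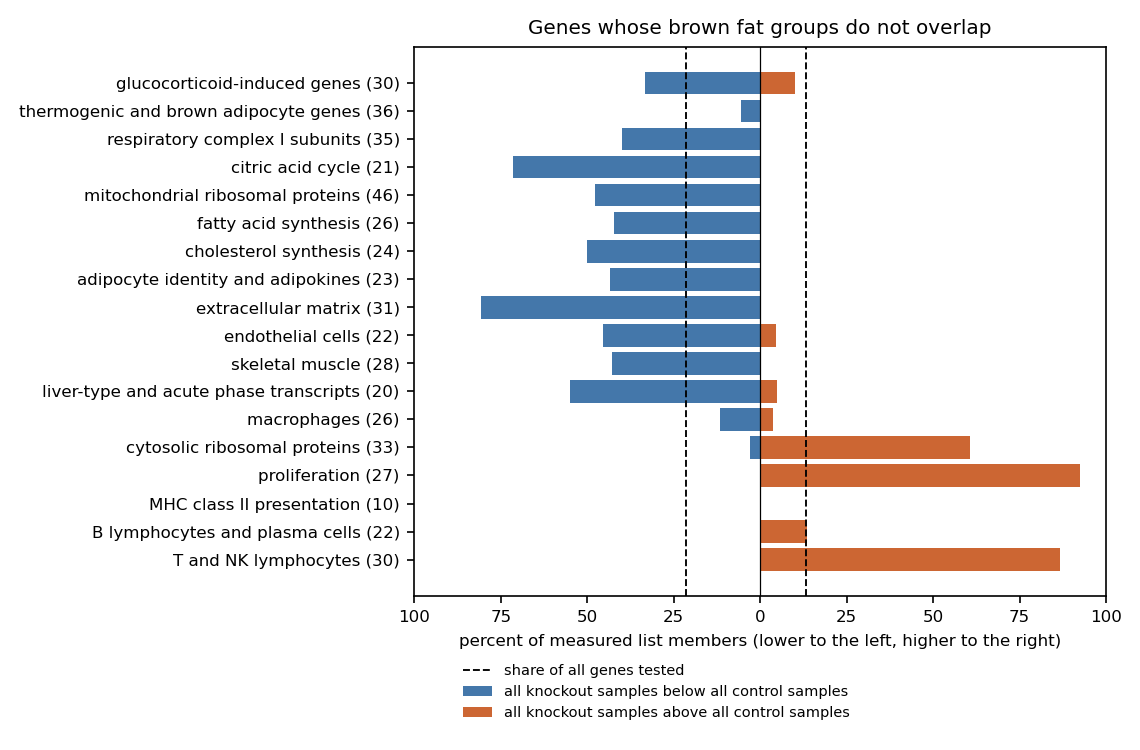
Share of the measured members of each list whose 2 knockout samples lie below (left) or above (right) all 3 control samples, in percent; dashed lines mark the shares of all genes, 21.4% and 13.3%. Extracellular matrix and citric acid cycle genes reach furthest to the left, proliferation and T and NK genes furthest to the right, and thermogenic genes fall short of the dashed line.

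The cells that make matrix gave a like picture. Pdgfra, a receptor of adipocyte progenitors, was at 1.14, 1.18 and 0.84 in control and 0.22 and 0.53 in knockout (-0.68 ± 0.47), and Pdgfrb, of perivascular progenitors, at 2.98, 2.68 and 2.76 against 2.49 and 2.22 (-0.45 ± 0.28). Dpp4, of an early progenitor state but also of T cells, lay the other way, at -0.24, -0.27 and -0.80 against 0.17 and 0.79 (0.91 ± 0.46). Of 22 progenitor and fibroblast genes 17 were lower (median -0.56). Apart below were 14 (63.6%, against 21.4% of all genes), and apart above were 3 (13.6%, against 13.3%). Kera, the matrix proteoglycan keratocan, was at -4.57, -4.77 and -0.64 against -6.09 and -6.96 (-3.20 ± 1.21), and was above background on 1 of 4 knockout arrays.

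Vessel and muscle genes were also lower. Cldn5, the tight junction protein of endothelium, was at 3.60, 3.77 and 3.68 in control and 2.85 and 2.77 in knockout (-0.87 ± 0.21), and Kdr, the main VEGF receptor, at 2.31, 2.03 and 2.58 against 1.76 and 1.73 (-0.56 ± 0.23). Of 22 endothelial genes 18 were lower and 10 apart below (45.5%, against 21.4% of all genes). Their median was -0.39, but 0.038 with the authors' unscaled values, or -0.27 relative to all genes. All 12 smooth muscle and pericyte genes were lower, 4 of them apart (33.3%). The median of these was -0.48, but -0.045 with the authors' unscaled values. Relative to all genes it was -0.36, but -0.091 with the normexp background. Skeletal muscle genes, at a median level of 7.45 in control, had a median difference of -0.83 with 12 of 28 apart (42.9%). Actn3, the actinin of fast fibres, was at 7.72, 8.09 and 6.93 against 6.56 and 6.10 (-1.25 ± 0.37), and Casq1, the calcium store protein, at 4.27, 4.80 and 4.06 against 3.44 and 2.91 (-1.20 ± 0.52). Acta1 was at 8.68, 8.93 and 8.56 against 8.38 and 7.64.

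Transcripts best known from liver were lower in both knockout samples, with control 4 the highest. Alb (albumin) was at -0.62, -0.37 and 3.03 in control and -1.81 and -2.46 in knockout (-2.82 ± 1.16). Mug1, a protease inhibitor, was at -5.14, -2.85 and -0.78 against -6.46 and -6.17, above background on 2 of 4 knockout arrays, and Ahsg (fetuin-A) at -4.65, -0.49 and 2.41 against -4.44 and -4.77, so control 1 lay among the knockout samples for Ahsg. Of 20 genes 19 were lower and 11 apart below (55%, against 21.4% of all genes). Their median was -1.22, with -0.35, -0.40 and 1.05 in control and -1.33 and -1.24 in knockout. Ttr and Apoa1, which hepatocytes express strongly, were not above background. Afp (alpha-fetoprotein) was the exception, at -4.42, -7.54 and -7.97 against -2.88 and -0.89, above background on 1 of 4 control arrays. Msln (mesothelin), a surface protein of mesothelium, was at -2.45, -2.90 and -1.89 against -4.31 and -5.18 (-2.34 ± 1.06), and the P450 gene Cyp2b13 at -4.91, -5.06 and -3.77 against -6.89 and -6.54, above background on 1 of 4 knockout arrays.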

How the data were processed

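Per the file headers, the deposited array files were made with Agilent Feature Extraction 12.0.0.7 and give a linear processed intensity per spot, corrected within the array for background and spatial trend and not scaled between arrays. The value table of the authors also holds linear intensity: for 40816 of 41174 probes it lay within 0.01 (log2) of the mean of the array's spots on all 16 arrays, so scale and direction are known and it is uncentred. Control and outlier spots were left out, spots of a probe averaged, log2 taken and each array's 75th percentile subtracted. Probes well above background on all 4 arrays of either brown group were kept (25999 in both groups, 629 in control only, 1788 in knockout only). Through the RefSeq table of GRCm38.p6, 28223 of 41174 probes matched 19096 symbols; among the kept probes 22158 were named. Each gene is its brightest kept probe; 5372 genes had more than 1.

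Arrays of a group whose difference over scanner error had a median absolute deviation below 1 were averaged, giving 9 samples in both tissues. Limma 3.58.1 (R 4.3.3) fitted a mean per group with 1 pooled spread, and p-values were adjusted by Benjamini-Hochberg over all genes. For a gene dim on all arrays of a group, "at least" compares the mean of the bright group with a bound for the dim one, which on each array is the lowest signal well above background or the signal of the probe itself if that is higher. The scripts (Python 3.11.15, pandas 2.3.3) were tested on simulated data. Same-numbered brown arrays deviated with correlations of -0.54 to -0.03, so the numbers do not pair them.

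The members, gene lists and tests were chosen with earlier results of these data known. The naming rule took Nr3c1, members of the receptor, glucocorticoid-induced and thermogenic lists, the 12 widest gaps each way, the 5 smallest p, up to 3 members of each other list and the first 3 markers of cell type lists. Acly, Fasn, Ahsg, Ms4a1, Cd4, Cdk1, the Arid5b probes and the genes of the check on control 2+3 were chosen after their values were seen, and so were the probe-level test and the values without control 2+3 as a set. Alternatives covered scaling, background, filters, probes, blocks and left-out samples. The normexp alternative was planned on mean signals and was run on median signals, which are the ones used here. The array design names another assembly, so only promoters carry coordinates. Some genes that the naming rule takes are not reported here.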

Additional observations from a re-analysis of the deposited data

How the results depend on the processing

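Calls over all genes depended on how arrays were counted: limma called 0 genes on distinct samples, 0 with each sample left out, 1 with the slide block, 1 with brown samples only, 4795 with 16 separate arrays and 5039 with the replicate block added to these, although the numbers do not pair the arrays. Nr3c1 was at -0.85 in both 16-array fits (adjusted p = 0.00309, and 0.00757 with the replicate block) and between -0.95 and -0.76 with 1 sample left out. Genes apart numbered 2431 to 4197 higher and 4157 to 6877 lower with 1 sample left out, and 5659 and 365 with the authors' unscaled values; the blocks do not alter these counts. With 1 sample left out, list medians ranged from -0.55 to -0.082 for glucocorticoid-induced genes, -0.89 to -0.20 for complex I, -1.14 to -0.39 for fatty acid synthesis, -0.82 to 0.15 for thermogenic genes, 2.65 to 4.22 for T and NK genes, -0.71 to -0.53 for matrix and 1.45 to 2.14 for proliferation. The authors' unscaled values moved 30 of 49 list medians beyond the spread between samples, among them glucocorticoid-induced genes (-0.029), complex I (-0.096), matrix (-0.24) and proliferation (2.22), by a shift common to all genes; normexp moved 9, among them T and NK genes (2.41) and proliferation (1.01), and quantile normalization moved 6; the cause was not tested.

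Single genes that turned sign were Nr3c2 (0.054) and Adipoq (0.077) with the authors' values; Spef2 (-0.45), Speer6-ps1 (-0.31) and Prss16 (-0.23) with normexp; Ucp1 (-1.59) and Cidea (-0.96) without control 2+3, up to 2.86 and 1.99 without control 4; and Elovl3 at 0.58 with 16 arrays or the replicate block, 0.033 with the slide block or slide 4 alone, and 0.25 and 0.75 without control 1 and control 4, against -2.85 without control 2+3. Signal over background limits genes such as Nsg2, Ipcef1, H2-Ob and Nefh, which were above background on some control arrays only.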

Other observations

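Several gene lists lay outside the comparisons above. Interferon-stimulated genes were lower in 19 of 26 members (median -0.26, but 0.17 with the authors' unscaled values), against 59.9% of all genes. Apart below were 2 members (7.7%), under the 21.4% of all genes. They include the antiviral Rsad2, at 0.76, 0.65 and 0.087 in control and -0.26 and -0.43 in knockout. Clock genes were lower in 14 of 18 (median -0.34, but 0.090 with the authors' unscaled values). Apart below were 5 (27.8%), near the share of all genes, and 1 was apart above. Those below include Clock, the core activator, at 1.43, 1.52 and 1.37 against 1.15 and 0.92. Immediate early genes had a median of -0.20 over 17 genes (0.23 with the authors' unscaled values). Apart below were 5 (29.4%), near the share of all genes, and 1 was apart above. Those below include the orphan receptor gene Nr4a1, at 4.70, 4.89 and 4.57 against 4.27 and 4.18. All 4 measured erythroid genes were lower (median -0.95), with Slc4a1, the red cell anion exchanger, at -2.91, -3.01 and -1.84 against -4.19 and -3.86.

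Cytokines and chemokines (29 genes, median 0.015; -0.024 with normexp, but 0.30 without control 2+3, with 21 higher), unfolded protein response and heat shock genes (21, -0.029; 0.062 with normexp), mesothelial genes (10, -0.020; 0.17 with quantile normalization) and Schwann cell genes (15, 0.0077; -0.25 with normexp) had medians near 0 with all samples. Neuronal-type genes (13) had a median of 0.42, but -0.37 with normexp. Apart above were 3 (23.1%, against 13.3% of all genes), and apart below were 4 (30.8%, against 21.4%). The neurofilament gene Nefh was at -5.46, -6.74 and -8.39 against -4.38 and -1.77, above background on 1 of 4 control arrays.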
